A study of Mus musculus with 6 samples.

Results

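The histone genes of the clusters were taken as every gene of the table whose symbol begins with *Hist1h*, *Hist2h*, *Hist3h* or *Hist4h*, which gave 70 genes among 53379. Of these, 34 had a mean normalized count of at least 10 over the 6 libraries and were tested, namely 5 of the 6 H1 genes, 9 of 20 H2A, 13 of 19 H2B, 4 of 12 H3 and 3 of 13 H4. The other 36 were below that level, 10 of them at 0 in every library. By symbol, 56 members belong to the large cluster on chromosome 13, 10 to the cluster on chromosome 3, 3 to chromosome 11 and 1 to chromosome 6. Among the 56, *Hist1h2al* lies far from the others (from chr13:51200084, GRCm38) and *Hist1h2ap* had no RefSeq place. The members just inside the limit were *Hist1h2bb* (mean 10.6) and *Hist1h2ag* (10.7), and those just outside it were *Hist1h2ai* (9.99) and *Hist1h4h* (9.5).

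RNA-seq was made from neural stem cells (NSCs), the self-renewing precursors of neurons and glia, grown as neurospheres from the cortex of mouse embryos at E14.5. All embryos were *Tbl1xr1* flox/flox, meaning that loxP sites flank an exon of *Tbl1xr1* on both alleles, and no library came from cells without the floxed allele. Control cells received a lentivirus with GFP alone and the others a lentivirus with Cre and GFP, and the infected cells were sorted by GFP, so each group depends on infection and sorting of a culture. There were 3 control libraries (1, 1_1 and 2), with 7510615 to 11161497 reads counted in genes, and 3 libraries labelled Cre (2, 2_2 and 3), with 11893230 to 14828100. The labels do not say how 1 relates to 1_1 or 2 to 2_2, so the p-values measure only the spread between these libraries, which may be technical.

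The mRNA of *Tbl1xr1* itself was not lower in the libraries labelled Cre. Its normalized count was 2522, 2189.8 and 2721 in the control libraries and 3774, 3463 and 2905 in those labelled Cre, a log2 difference of 0.45 (SE 0.14, adjusted p = 0.06 in limma). A gene total mixes the floxed exon with the others, so it does not check the deletion, and the second group is called by its label throughout. For sorted cells prepared this way, the paper reports a genotype check and the absence of *Tbl1xr1* mRNA and protein. The defining markers of NSCs were present in every library, with *Sox2* between 5359 and 11374 and *Nes*, which encodes the filament protein nestin, between 3124 and 7011. *Nes* fell by 0.85 on the log2 scale in the second group (adjusted p = 0.00384 in limma). It was the only 1 of 10 NSC markers that passed, beside 9.96% of all tested genes. Without Cre 2, 2 markers were lower and 1 higher, in a fit that called 2396 genes in all against 1478 with every library. Without Cre 3, 1 marker was lower and 1 higher. *Stmn2*, a neuronal gene, was at 0 in every library, and *Gfap*, an astrocyte filament gene, did not exceed 10.3. Other genes of the neuronal and astrocyte lists were abundant in every library. Among them were the neuronal *Map2*, between 9124 and 11155, and the astrocyte gene *Aldoc*, between 1869 and 2455. Control 1_1 stood apart in that its 10 most abundant genes took 22.9% of its reads, against 15.9% to 19.3% in the other libraries.

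Core histones (H2A, H2B, H3 and H4) form the spool on which DNA is wound, and the linker histone H1 binds where DNA enters and leaves it. The clustered genes supply these proteins while DNA is copied: their transcription rises in S phase under the coactivator NPAT, and their mRNAs typically end in a short stem-loop bound by SLBP instead of a poly(A) tail. Single histone genes outside the clusters, such as those of H3.3 and H2A.Z, make ordinary polyadenylated mRNA through the whole cell cycle, and some clustered genes can also give longer polyadenylated transcripts. In dividing precursors such as NSCs the level of the clustered mRNAs generally follows how much of the culture is copying its DNA. The library kit used here selects poly(A) RNA, so the counts below need not follow the total of these mRNAs. How far they do was not measured.

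The stem-loop is printed here because it sets these mRNAs apart from others and bears on how a poly(A)-based library sees them. A window of 150 bases after the stop codon (mm9 genome, GENCODE M1 models) was searched on the sense strand for a stem of 6 base pairs with a loop of 4 bases, in the forms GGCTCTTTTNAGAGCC and GGCCCTTTTNAGGGCC. It was found in 59 of the 67 members that had a coding model, in all 6 H1, 17 of 19 H2A, 16 of 18 H2B, 10 of 11 H3 and 10 of 13 H4 genes. Among 21863 other protein-coding genes it was found in 2, a share of 0.00915%. Those 2 were *H2afx*, which encodes the DNA damage histone H2A.X, and *1700014N06Rik*. The 5 forms found are given below with the stem in capitals.
Form of 39 members, with H1, H2A, H2B and H3 genes: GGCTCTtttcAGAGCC
Form of 9 members, with H1, H2A, H2B and H3 genes: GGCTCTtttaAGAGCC
Form of 1 member, an H2A gene: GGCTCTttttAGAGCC
Form of 8 members, H4 genes: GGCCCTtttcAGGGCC
Form of 2 members, H4 genes: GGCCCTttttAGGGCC
All 10 H4 genes with a match had the stem GGCCCT, and all 49 genes of the other types had the stem GGCTCT.

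In the comparison of the libraries labelled Cre with control, 4 of the 34 tested members were lower and 2 were higher at an adjusted p under 0.05 (limma on log2 of the normalized count plus 1, Benjamini-Hochberg over 14840 genes). Those that fell were the linker histone genes *Hist1h1b*, *Hist1h1d* and *Hist1h1e* and the H2B gene *Hist3h2ba*, and those that rose were the H2A gene *Hist3h2a* and the H2B gene *Hist1h2bc*. The 6 called members make 17.6% of those tested, beside 9.96% of all tested genes, and the 4 lower members stand beside 5.22% and the 2 higher members beside 4.74% of all tested genes. The groups did not overlap for 11 of the 34 members, 5 with every library labelled Cre higher and 6 with every one lower, a share of 32.4% beside 30.3% of all tested genes. Whatever the threshold, 27 members had a negative log2 fold change and 7 a positive one, with a median of -0.50, beside 50.1% negative and a median of -0.0010 over all tested genes. The scaling moved neither count, and without control 1_1 or Cre 2_2 the split was 24 negative to 10 positive, with medians of -0.24 in both cases. Without control 1 or Cre 2_2, the adjusted threshold was passed by 0 higher and 2 lower members, and without control 1_1 by 1 and 2. At an unadjusted p under 0.05, 5 members were higher and 7 lower, 12 of the 34, beside 12.2%, 13.2% and together 25.5% of all tested genes. Members share reads, libraries and neighbourhoods, so these counts describe them and carry no test of their own. In bulk RNA, fewer cells of a type and less RNA per cell cannot be told apart.

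**Figure D1:**
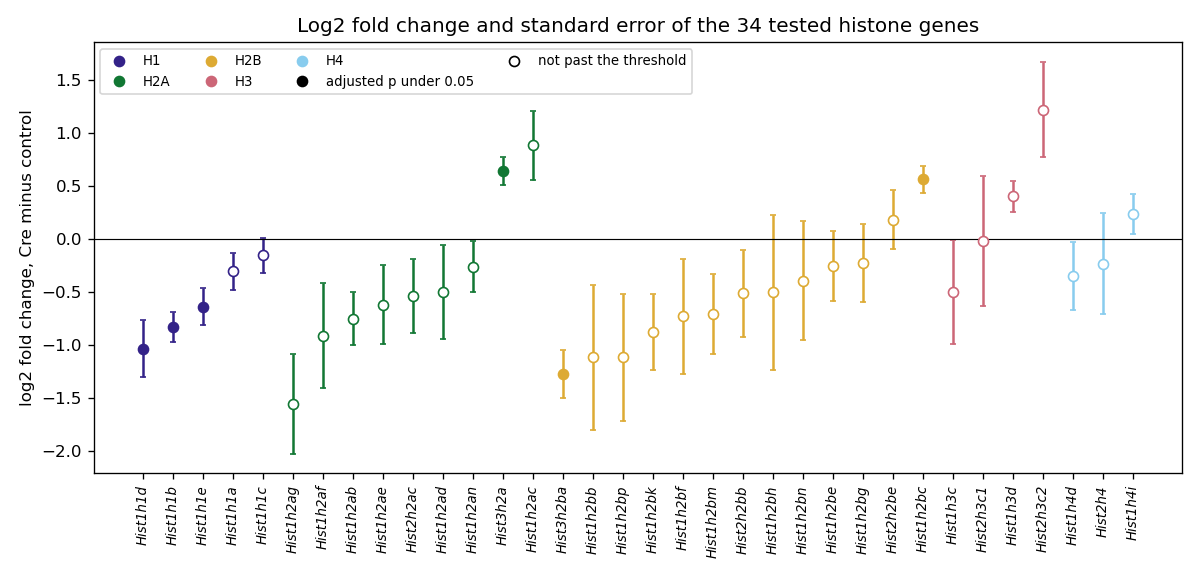
Log2 fold change (Cre minus control, vertical axis) of each of the 34 tested histone genes, grouped by histone type, with standard errors from limma as bars. Filled points passed an adjusted p of 0.05: the 3 H1 genes and *Hist3h2ba* lie below 0, and *Hist3h2a* and *Hist1h2bc* lie above it.

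The linker histone genes carried most of the difference in summed normalized counts. *Hist1h1e* (RefSeq symbol H1f4) was the most abundant member per length, with 10458 normalized counts per kb of annotated exon in control. Its normalized count was 7334, 9519.9 and 6614 in control 1, 1_1 and 2 and 6050.1, 4049.6 and 4993 in Cre 2, 2_2 and 3. The groups did not overlap, although Cre 2 lay close under control 2. Group means were 7823 ± 1513 (SD, n = 3) and 5031 ± 1001 (SD, n = 3), with a log2 fold change of -0.64 (SE 0.17, adjusted p = 0.0417 in limma). This call was lost without any of the libraries control 1, 1_1 or 2, Cre 2_2 or Cre 3, with adjusted p-values from 0.0593 to 0.172 in limma.

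*Hist1h1b* (H1f5), the next H1 gene by level per length at 3728 normalized counts per kb in control, had the firmest call among the H1 genes. It was at 3072, 2738 and 2498 normalized counts in control and at 1745, 1306 and 1647 in the libraries labelled Cre. The groups were well apart, the highest library labelled Cre lying below the lowest control. Its log2 fold change was -0.83 (SE 0.14, adjusted p = 0.00426 in limma), and it stayed past the threshold in all 16 refits, with an adjusted p of at most 0.0356. *Hist1h1d* (H1f3) had 1202, 1759.7 and 891 normalized counts in control and 669, 404 and 812 in the libraries labelled Cre. Its control values spread widely, and control 2 was only a little above Cre 3. Its log2 fold change of -1.03 was the most negative among the H1 genes (SE 0.27, adjusted p = 0.0347 in limma), but the limma adjusted p was 0.112 without control 1, 0.135 without control 1_1 and 0.136 without Cre 2_2.

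The remaining H1 genes did not pass the threshold. *Hist1h1c* (H1f2) had 1926, 2355 and 1429.7 normalized counts in control and 1739.7, 1594 and 1707 in the libraries labelled Cre. All 3 of the latter lay inside the control range, and the log2 fold change was -0.15 (SE 0.16, adjusted p = 0.616 in limma). *Hist1h1a* (H1f1) had 482, 553 and 411 in control and 434, 305 and 438 in the libraries labelled Cre. Its groups overlapped, with a log2 fold change of -0.31 (limma adjusted p = 0.307). *Hist1h1t*, the testis H1 gene, had a mean of 1.91 and was not tested. Whether the fold change of *Hist1h1c* differed from those of the called H1 genes was not tested.

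**Figure D2:**
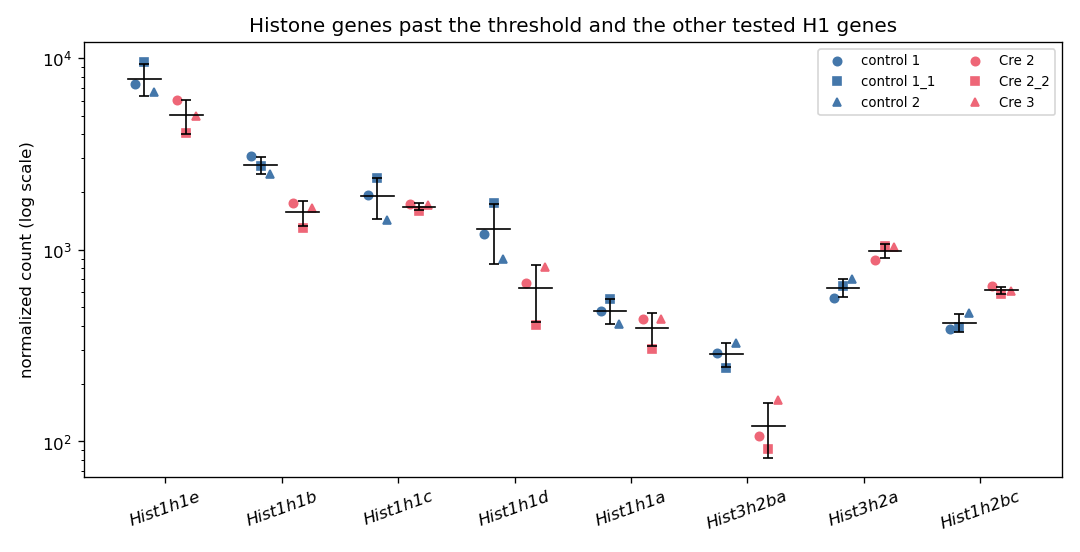
Normalized count (log axis) in each library for the 6 histone genes past the threshold and for *Hist1h1c* and *Hist1h1a*; bars are the group mean and SD of 3 libraries. The control points of *Hist1h1e*, *Hist1h1b*, *Hist1h1d* and *Hist3h2ba* lie above the points labelled Cre, those of *Hist3h2a* and *Hist1h2bc* lie below them, and *Hist1h1c* and *Hist1h1a* overlap.

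The promoters of the 5 tested H1 genes are printed because 3 of the genes passed and 2 did not. They are the 170 bases before the RefSeq start site (GRCm38.p6, gene strand, 5′ to 3′). Capitals mark exact matches, on either strand, to TATAAA (a form of the TATA box), CCAAT (the CCAAT box) and AAACACA (the H1 box). The H1 box is an element known from H1 promoters.
*Hist1h1b*, chr13:21780626-21780795, minus strand: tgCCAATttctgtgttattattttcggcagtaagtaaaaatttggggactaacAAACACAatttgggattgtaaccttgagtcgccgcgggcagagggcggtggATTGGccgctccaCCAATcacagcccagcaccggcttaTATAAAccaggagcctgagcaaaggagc
*Hist1h1d*, chr13:23554862-23555031, plus strand: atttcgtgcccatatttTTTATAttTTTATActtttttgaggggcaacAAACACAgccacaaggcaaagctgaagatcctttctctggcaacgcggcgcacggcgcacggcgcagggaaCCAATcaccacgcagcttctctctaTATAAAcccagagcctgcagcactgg
*Hist1h1e*, chr13:23622559-23622728, minus strand: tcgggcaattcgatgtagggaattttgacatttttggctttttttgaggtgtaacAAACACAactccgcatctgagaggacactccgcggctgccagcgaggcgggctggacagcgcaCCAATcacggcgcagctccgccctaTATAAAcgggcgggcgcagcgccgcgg
*Hist1h1c*, chr13:23738637-23738806, plus strand: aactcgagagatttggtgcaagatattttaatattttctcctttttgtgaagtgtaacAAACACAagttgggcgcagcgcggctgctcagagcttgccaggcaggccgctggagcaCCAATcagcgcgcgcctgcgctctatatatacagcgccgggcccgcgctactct
*Hist1h1a*, chr13:23763498-23763667, plus strand: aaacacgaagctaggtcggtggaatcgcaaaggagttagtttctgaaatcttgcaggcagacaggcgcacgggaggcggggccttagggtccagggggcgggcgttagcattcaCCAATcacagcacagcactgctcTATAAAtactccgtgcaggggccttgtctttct

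The 3 H1 genes that fell held all of these elements in the same order. AAACACA began at -117 in *Hist1h1b*, -122 in *Hist1h1d* and -115 in *Hist1h1e*, counted from the start site. A CCAAT began at -53, -51 and -52 and a TATAAA at -28, -26 and -27 in the same genes. In *Hist1h1c* the letters AAACACA (-112) and CCAAT (-54) were present and the exact TATAAA was not. Its sequence holds the related letters TATATATA, which the search did not cover. In *Hist1h1a* CCAAT (-56) and TATAAA (-33) were present and AAACACA was not. Over all 32851 RefSeq promoter windows of the same kind (250 bases before to 50 after the start), TATAAA was in 13.6%, CCAAT in 37.4% and AAACACA in 7.18%, on either strand. Among the 61 members with a promoter in the table, AAACACA was in 5 of 6 H1 genes, 2 of 17 H2A, 2 of 16 H2B and none of 10 H3 and 12 H4 genes. CCAAT was in every H1, H2A, H2B and H3 promoter and in 3 of 12 H4 promoters. The octamer ATTTGCAT, in 1.74% of all windows, was in 7 of 17 H2A and 7 of 16 H2B promoters and in none of the other types. The E2F-type letters TTTCCCGC, TTTCGCGC, TTTGCCGC or TTTGGCGC, in 2.26% of all windows, were in 5 H2A, 4 H2B and 1 H4 promoter. A match of letters is a description and was not tested as a site, and the motifs do not overlap each other in the sequences shown.

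On chromosome 11, 2 of the 3 members were tested, and they moved in opposite directions. *Hist3h2ba*, an H2B gene (chr11:58948911-58949372, GRCm38), had 288, 243 and 327 normalized counts in control and 107, 91.3 and 164 in the libraries labelled Cre. The lowest control library was above the highest of the other group. Its log2 fold change was -1.27 (SE 0.22, adjusted p = 0.0053 in limma), and it passed in all 16 refits, with an adjusted p of at most 0.0411. *Hist3h2a*, an H2A gene (chr11:58954685-58955192), lies further along, with 5312 bases between them. The third member, the pseudogene *Hist3h2bb-ps* (chr11:58954048-58954512), lies between these genes and was too low to test, with 7, 2 and 9 reads in control and 3, 0 and 1 in the libraries labelled Cre. *Hist3h2a* had 559.8, 644 and 701 normalized counts in control and 889, 1041 and 1034 in the libraries labelled Cre. No control library reached the lowest of the other group, with a log2 fold change of 0.64 (SE 0.13, adjusted p = 0.0121 in limma). The limma adjusted p was 0.0832 without control 1 and 0.0618 without Cre 2_2. In the GENCODE M1 models an exon of *Hist3h2a* overlaps one of *Trim17*, a ubiquitin ligase gene on the same strand, so reads there cannot be told apart. *Trim17* itself had 13.3 to 21.1 normalized counts in control and 17.0 to 40.2 in the libraries labelled Cre.

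The upstream sequences of the tested pair are printed because the genes are close and their differences have opposite signs. Capitals mark the same letters as above and, in *Hist3h2a*, the octamer read on the other strand.
*Hist3h2ba*, chr11:58948741-58948910, plus strand: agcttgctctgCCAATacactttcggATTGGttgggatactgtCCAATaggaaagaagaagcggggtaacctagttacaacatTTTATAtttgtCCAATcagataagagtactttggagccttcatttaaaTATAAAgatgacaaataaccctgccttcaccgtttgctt
*Hist3h2a*, chr11:58954515-58954684, plus strand: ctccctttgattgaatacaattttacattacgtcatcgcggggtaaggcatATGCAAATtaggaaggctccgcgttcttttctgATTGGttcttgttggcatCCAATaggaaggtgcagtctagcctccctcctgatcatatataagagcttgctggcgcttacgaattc
*Hist3h2ba* has TATAAA at -39 and 3 forward CCAAT matches at -159, -127 and -76. *Hist3h2a* has CCAAT at -68, the octamer at -119 and no exact TATAAA in this window. The *Hist3h2a* sequence holds the related letters TATATAA, which the search did not cover.

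*Hist1h2bc*, an H2B gene of the chromosome 13 cluster, was the other member that rose. It had 387, 395 and 469 normalized counts in control and 643, 591 and 609 in the libraries labelled Cre. The groups did not overlap, and the log2 fold change was 0.56 (SE 0.13, adjusted p = 0.0214 in limma). The limma adjusted p was 0.119 without control 1, 0.0845 without control 1_1 and 0.0629 without Cre 2_2. Its neighbour *Hist1h2ac*, an H2A gene with 239 bases between the RefSeq spans, was also higher in every library labelled Cre, with 19.3, 16.1 and 32.0 normalized counts in control and 40.2, 41.3 and 40.3 in the libraries labelled Cre. With a log2 fold change of 0.88 it did not pass (limma adjusted p = 0.114), and the gene is named here after its values were seen.

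Among the other H2A genes, none passed in limma with all 6 libraries. *Hist1h2ab* had 495, 699 and 417 normalized counts in control and 222, 302 and 449 in the libraries labelled Cre. Only Cre 3 reached into the control range. The log2 fold change was -0.75 (SE 0.25, adjusted p = 0.0832 in limma), and DESeq2 on the recovered reads gave an adjusted p of 0.0356. Without Cre 3 it passed in limma as well, with a log2 fold change of -1.02 and an adjusted p of 0.0148. These were the only 2 of its 16 refits that passed, and edgeR gave an adjusted p of 0.0904. In limma the adjusted p was 0.276 without control 1_1 and 0.217 without Cre 2_2. *Hist1h2an* had 349, 521 and 295 in control and 244, 293 and 433 in the libraries labelled Cre. These values overlapped, with a log2 fold change of -0.26 (limma adjusted p = 0.544). *Hist1h2ag*, near the limit of level, had 12.8, 19.0 and 17.3 in control and 3.46, 5.17 and 6.27 in the libraries labelled Cre. Its groups were apart, and its log2 fold change of -1.56 was the most negative among the members, with an adjusted p of 0.0596 in limma and 0.0451 in edgeR. The other tested H2A genes had log2 fold changes from -0.91 (*Hist1h2af*) to -0.50 (*Hist1h2ad*).

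Of the 13 tested H2B genes, 11 had a negative log2 fold change, and only *Hist3h2ba* and *Hist1h2bc* passed in limma with all 6 libraries. *Hist1h2bk*, named after its values were seen, had 154, 167 and 121 normalized counts in control and 51.9, 59.4 and 159 in the libraries labelled Cre. Cre 3 lay inside the control range, and the log2 fold change of -0.88 (limma adjusted p = 0.149) became -1.38 without Cre 3, which passed (limma adjusted p = 0.00384). *Hist1h2bk* passed in no other refit, with an adjusted p of 0.248 in edgeR, 0.188 in DESeq2 and 0.388 in limma without Cre 2_2. *Hist2h2bb* showed how much control 1_1 could weigh: it had 269, 685 and 185 normalized counts in control and 226, 154 and 335 in the libraries labelled Cre. The groups overlapped, and the log2 fold change of -0.51 (limma adjusted p = 0.473) became 0.02 without control 1_1. *Hist1h2bb* had 17.4, 13.2 and 9.34 in control and 4.16, 1.72 and 17.9 in the libraries labelled Cre, with a log2 fold change of -1.12 (limma adjusted p = 0.341) that ran from -1.89 without Cre 3 to -0.50 without Cre 2_2. Control 1_1 had the highest value of the 6 libraries for 19 of the 34 tested members, and Cre 2_2 had the lowest for 14 and Cre 2 for 10.

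The H3 genes differed in sign among themselves, and none of the 4 tested passed in limma, edgeR or DESeq2. In limma 2 of the 4 had an unadjusted p under 0.05, beside 25.5% of all tested genes. The groups did not overlap for 2 of the 4, beside 30.3% of all tested genes. *Hist1h3d* had 246, 208 and 253 normalized counts in control and 294, 327 and 313 in the libraries labelled Cre. All values labelled Cre were above control, with a log2 fold change of 0.41 (SE 0.15, adjusted p = 0.107 in limma). *Hist1h3c* had 116, 62.9 and 53.3 in control and 20.1, 69.7 and 94.9 in the libraries labelled Cre, which overlapped. Its log2 fold change was -0.50 (limma adjusted p = 0.576). *Hist2h3c1* had a log2 fold change of -0.02 (limma adjusted p = 0.99), with 10.2 to 16.5 normalized counts in control and 4.48 to 34.6 in the libraries labelled Cre. *Hist2h3c2*, named after its values were seen, had 4.59, 10.2 and 6.67 in control and 15.9, 17.2 and 18.8 in the libraries labelled Cre, which did not overlap, and its log2 fold change was 1.22 (limma adjusted p = 0.112).

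None of the 3 tested H4 genes passed, and at an unadjusted p under 0.05 there was none either; edgeR and DESeq2 also called none. *Hist1h4d* had 469.9, 805 and 272 normalized counts in control and 388, 278 and 462 in the libraries labelled Cre. The spread within control, set by 1_1 and 2, exceeded the difference between the groups, and the log2 fold change was -0.35 (limma adjusted p = 0.547). *Hist1h4i* had 298, 310.1 and 344 in control and 275, 406 and 465 in the libraries labelled Cre, with a log2 fold change of 0.23 (limma adjusted p = 0.48). *Hist2h4* had a log2 fold change of -0.23 (limma adjusted p = 0.808).

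Summing all members of a type depends less on how reads of near-identical copies were split between genes. A sum does not bring back reads that were left uncounted because they fit several genes. The H1 sum was 14017, 16933 and 11843 normalized counts in control and 10642, 7658 and 9596 in the libraries labelled Cre. These groups did not overlap, and the ratio of the means was 0.652 (log2 -0.62). The sums of H2A, H2B, H3 and H4 overlapped between the groups, with ratios of 0.936, 0.843, 1.17 and 0.903. Without control 1_1 the log2 ratio of H2A went from -0.09 to 0.10 and that of H4 from -0.15 to 0.10, without Cre 2 that of H2A was 0.04, and the H1 ratio stayed between -0.73 and -0.48 with any library left out. H1 genes took 72.8% to 74.9% of the summed counts of all members in control and 62.6% to 71.9% in the libraries labelled Cre. These shares of counts are not scaled by length. In the tested H1 genes 77.8% to 100% of the 50-base words occur in no other gene's transcript. By contrast, 6 core histone genes with almost no such words were at 0 in every library. The shares therefore need not be those of the mRNA. Per length, *Hist1h1d* had 336 normalized counts per kb over its GENCODE M1 exons and 1655 over its shorter RefSeq span in control, below *Hist1h1a* (645) with the first and above it (647) with the second. *Hist1h1c* had 1220.3 and 2626, above both genes with either annotation.

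**Figure D3:**
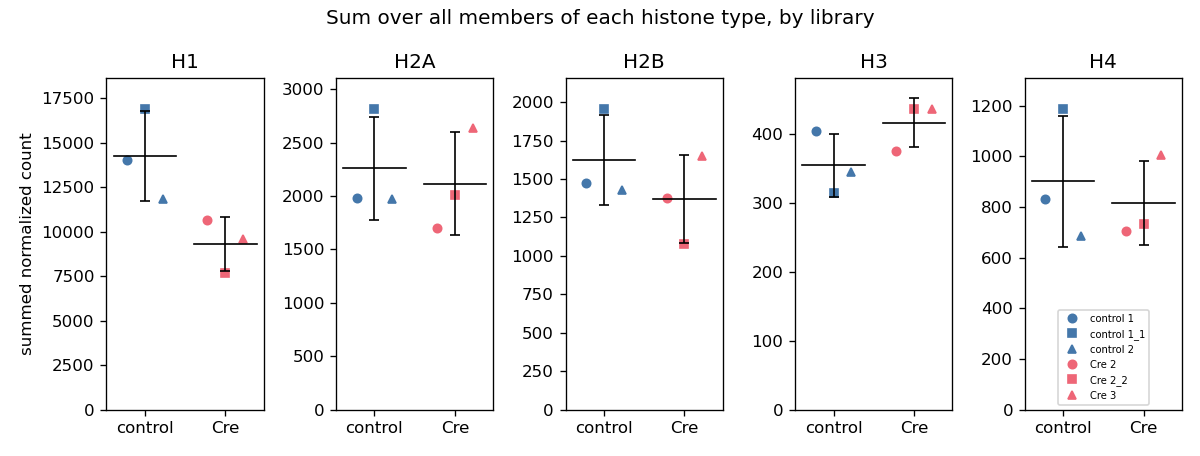
Summed normalized count of all members of each histone type in each library, with the group mean and SD of 3 libraries; each panel has its own axis from 0. In the H1 panel the control libraries lie between 11843 and 16933 and the libraries labelled Cre between 7658 and 10642, and in the other panels the groups overlap.

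Part of the family has near-identical sequence, and how far this shaped the counts was not tested. The share of 50-base words of a transcript that occur in no other gene's transcript was under 5% for 6 members, and all 6 were at 0 in every library. They were *Hist1h2ao*, *Hist1h2ap*, *Hist2h2aa1*, *Hist2h2aa2*, *Hist1h2bq* and *Hist1h2br*, in pairs of identical coding sequence. How reads that fit several genes were counted is not given in the sources used here, so a 0 in these genes is not a measure of their level. The other 4 members at 0, *Hist1h2aa*, *Hist1h2al*, *Hist1h2ba* and *Hist1h3a*, had unique shares from 28.6% to 97.7%. A count of 0 allows up to 3 reads, worth 2.08 to 4.39 normalized counts in these libraries, an upper limit for counting error only. All 9 tested members with unique shares from 5% to 50% had negative log2 fold changes, with a median of -0.73, and the 24 with at least 50% had 6 positive and 18 negative ones, with a median of -0.33. The called members had unique shares between 52.7% (*Hist1h2bc*) and 100% (*Hist1h1b* and *Hist3h2ba*). *Hist1h2ah* had 3, 2 and 3 reads in control and 0 in each library labelled Cre, and *Hist1h3h* had 2, 3 and 1 and then 0, all at or under the limit, so no fold is given.

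**Figure D4:**
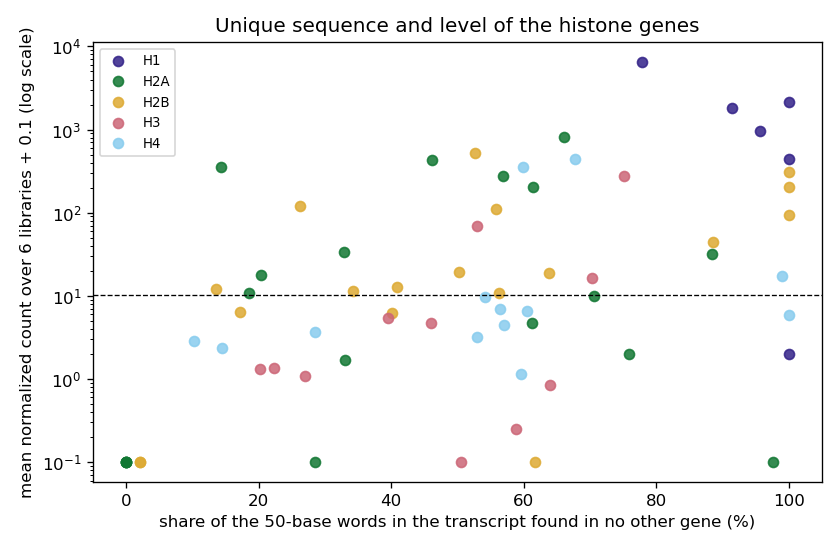
Mean normalized count over the 6 libraries plus 0.1 (log axis) against the share of 50-base words found in no other gene, for the 67 members with a coding transcript, coloured by type. The 6 members with a share under 5% lie at the bottom left at a count of 0, and the dashed line marks the level of 10 used as the limit for testing.

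Members also differed in how far their annotated transcripts run past the stem-loop. In GENCODE M1, 10 tested members had a transcript that reached at least 500 genomic bases past it, 20 had one that ended sooner, and 4 had no match or no coding transcript. Of the first 10, 4 had a positive and 6 a negative log2 fold change (median -0.09), and of the 20, 1 had a positive and 19 a negative one (median -0.63). The 4 positive ones were *Hist3h2a*, *Hist1h2bc*, *Hist1h2ac* and *Hist1h3d*, with 1487, 7826 (over an intron), 2010 and 752 bases past the stem-loop. *Hist1h1d*, with 3050 bases, went the other way at -1.03, and *Hist1h2bp*, with 1275 bases, had a log2 fold change of -1.11 (limma adjusted p = 0.276). The split at 500 bases was made after the values were seen and has no test, and the length of the transcripts in these cells was not measured.

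**Figure D5:**
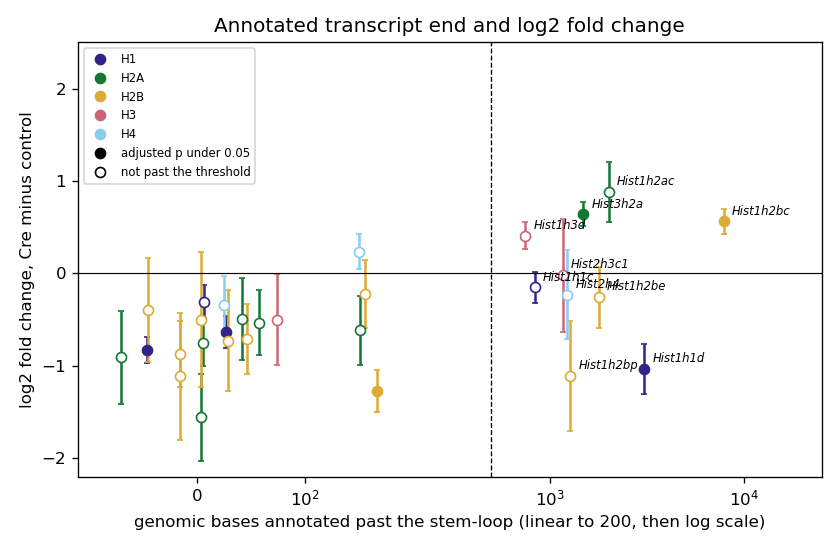
Log2 fold change (Cre minus control, with limma standard errors) of the 30 tested members with a stem-loop match against the genomic bases their annotated transcript runs past it, on an axis that is linear to 200 and logarithmic beyond; values under 0 mark annotated ends before the stem-loop, and the dashed line is at 500 bases. Left of the line 19 of 20 points lie below 0, and right of it 4 of 10 lie above 0.

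As a check on library preparation, 8 RNAs without a poly(A) tail were tested, among them *Rn7sk*, *Rpph1* and *Rmrp*, and none passed in limma, edgeR or DESeq2, nor at an unadjusted p under 0.05 in limma, where the count was 0. Together with 4 that were too low to test, they summed to 420.1 to 566 normalized counts in control and 458 to 585 in the libraries labelled Cre. Of the 8, 7 had a positive log2 fold change, with a median of 0.25, whereas most members had a negative one. Their part in the results for the histone genes was not tested.

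Histone genes outside the clusters showed no call. Of 11 genes listed as replication-independent, 3 had a positive and 8 a negative log2 fold change, with a median of -0.04. None passed in limma, edgeR or DESeq2. In limma 3 had an unadjusted p under 0.05, beside 25.5% of all tested genes. Without Cre 2, *H2afy2* passed as lower, and without Cre 3, *H2afx* did. *H3f3b*, an H3.3 gene, had 2660 to 2683 normalized counts in control and 2689 to 2726 in the libraries labelled Cre, with a log2 fold change of 0.02 (limma adjusted p = 0.919). *H1f0*, a linker histone gene of slowly dividing cells, had a log2 fold change of -0.02 (limma adjusted p = 0.932), *H2afz* of -0.04 (0.888) and *H3f3a* of 0.08 (0.854). *H2afx* is in this list although it shares the stem-loop of the clustered genes. It had 1019 to 1315 normalized counts in control and 809 to 1060.1 in the libraries labelled Cre. With all 6 libraries its log2 fold change of -0.43 did not pass (limma adjusted p = 0.0936).

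Of the 19 tested genes that transcribe, process or degrade histone mRNA, none passed in limma, edgeR called 0 and DESeq2 called 1. Their log2 fold changes were negative in 15 and positive in 4, with a median of -0.24. In limma 5 had an unadjusted p under 0.05, beside 25.5% of all tested genes. Without Cre 2, 3 passed. *Slbp*, whose protein binds the stem-loop, had 165, 151 and 164 normalized counts in control and 94.2, 132 and 142 in the libraries labelled Cre. All values labelled Cre were lower, with a log2 fold change of -0.40 (SE 0.20, adjusted p = 0.228 in limma). *Npat*, the coactivator of the clusters, had a log2 fold change of -0.01 (limma adjusted p = 0.969). Among 23 tested genes for histone chaperones and import, 4 fell and none rose, beside 5.22% lower and 4.74% higher of all tested genes. *Nasp*, the H1 and H3-H4 chaperone, fell by 0.88 on the log2 scale (limma adjusted p = 0.000747) and *Ssrp1* of the FACT complex by 0.54 (0.0136). *Ncl*, nucleolin, fell by 0.49 (limma adjusted p = 0.0347) and *Chaf1a* of chromatin assembly factor 1 by 0.43 (0.0433). *Nasp* alone of the 4 passed without control 1, control 1_1, control 2 or Cre 2_2, each left out in turn, and without Cre 2, 9 genes of the list were lower and 1 higher.

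S phase genes were lower beside the H1 genes. Of the 12 tested, 6 fell, beside 5.22% of all tested genes. The log2 fold change was negative in all 12, with a median of -0.62. The replication helicase genes *Mcm2*, *Mcm3*, *Mcm4*, *Mcm5* and *Mcm7* fell by 0.61, 0.80, 0.69, 0.84 and 0.76 on the log2 scale (limma adjusted p from 0.00138 to 0.0375), and *Rrm2*, a subunit of ribonucleotide reductase, by 0.68 (0.0119). *Pcna*, the sliding clamp, had a log2 fold change of -0.50 and did not pass (limma adjusted p = 0.0752). The sum over this list was 11161 to 12908 normalized counts in control and 7027 to 7765 in the libraries labelled Cre, without overlap. Without control 1 or control 2, only 2 of the 12 passed. Whether the H1 and S phase genes differ for one reason was not tested.

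Markers of other cell types moved with the groups too. Of 6 tested astrocyte markers, 3 rose, beside 4.74% of all tested genes. *S100b* rose with a log2 fold change of 3.10 (limma adjusted p = 7.39e-07) and the glutamate transporter gene *Slc1a2* with 1.16 (0.000382). The water channel gene *Aqp4* rose with 1.64 (limma adjusted p = 0.0228). *Aldh1l1*, a folate enzyme gene of astrocytes, had 18.4, 19.0 and 14.7 normalized counts in control and 9.0, 2.58 and 4.48 in the libraries labelled Cre. It went the other way without overlap and did not pass, with a log2 fold change of -1.65 (limma adjusted p = 0.065). The astrocyte list summed to 3111 to 3411 normalized counts in control and 5590.2 to 6568 in the libraries labelled Cre. Of 6 tested oligodendrocyte lineage markers, 3 rose, *Pdgfra* with 0.86 (0.0136), *Olig2* with 0.71 (0.00747) and *Cspg4* with 0.64 (0.0285), and their list summed to 12484 to 14404 and 17232 to 19636. Without Cre 2, 4 astrocyte markers were higher and *Aldh1l1* was lower past the threshold, and without control 2, 1 oligodendrocyte lineage marker passed. Of 6 tested neuronal markers none passed in limma, edgeR or DESeq2, with 1 at an unadjusted p under 0.05 in limma, beside 25.5% of all tested genes. The neuronal list summed to 9312 to 9556 and 10174 to 11400, nearly all of it *Map2*. The part of these shifts in the results for the histone genes was not tested.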

How the data were processed

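The values were the normalized counts of the deposited table, a signal scale made by the authors with DESeq2 from reads in genes. Their methods name TopHat with mm9 and mm10, and the submitters' processing notes name STAR 2.7, DESeq2 and mm10. The library kit (TruSeq RNA v2) selects poly(A) RNA and does not mark strand, and the counting tool and annotation are not given in the sources used here. The deposited log2 fold change column, the test score (Wald statistic) and the p-values hold the authors' own DESeq2 comparison and were not used. Dividing each library by the value of its single read gave whole reads for 100% of values (tolerance 0.001). Of 53379 rows, 873 had no gene name and 1 with a missing value was dropped.

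Genes with a mean of at least 10 over the 6 libraries were tested with limma 3.58.1 (trend) on log2 of the normalized count plus a pseudocount of 1, without covariates, two-sided, with Benjamini-Hochberg adjustment and a threshold of 0.05. A fold change on this scale understates the change of low genes. edgeR 4.0.16 and DESeq2 1.42.0 on the recovered reads called 1483 and 1755 genes against 1478 by limma. The script was tested on simulated data. The members and lists were chosen with earlier results of these data known. Named members were those past the threshold, the 3 with the highest mean of each type and the nearest to the limit of 10, and, of the lists, the genes past the threshold with *Slbp*, *Npat*, *H2afz*, *H2afx*, *H3f3a*, *H3f3b*, *H1f0* and *Pcna*; other members named in the text were chosen after their values were seen. Places and promoters came from RefSeq (GRCm38.p6), in which 69 of 70 members matched. Transcript models and stem-loops came from GENCODE M1 (mm9), in which 56 members matched by identifier and 14 by name.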

Additional observations from a re-analysis of the deposited data

How the results depend on the processing

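No paired analysis was possible because the groups share only the replicate number 2. *Hist1h1b* and *Hist3h2ba* passed under all 16 refits. Leaving out 1 library gave 0 to 2 higher and 2 to 5 lower members, and 558 to 2396 called genes over all those tested. It gave 0 to 1 called replication-independent histone genes, 0 to 3 processing genes, 1 to 10 chaperone genes, 2 to 8 S phase genes, 1 to 3 NSC markers, 2 to 5 astrocyte markers and 1 to 3 oligodendrocyte lineage markers. With controls 1 and 1_1 averaged, 0 members were higher and 2 lower, with 660 called genes in all, 1 chaperone gene and 3 S phase genes; fewer samples then enter the fit. At an adjusted p under 0.1 there were 2380 called genes, with 1 replication-independent, 3 processing, 8 chaperone and 10 S phase genes. DESeq2 called 1 processing and 7 chaperone genes, the limit at a mean of 50 and the averaging of Cre 2 and 2_2 gave 1 processing gene each, and no filter gave 2 chaperone genes. The cause of the other shifts was not tested.

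The log2 fold change of *Hist2h3c1* turned to 0.37 in edgeR, 0.36 in DESeq2 and 0.0534 with a pseudocount of 5. With Cre 2 and 2_2 averaged, *Hist2h4* turned to 0.0094 and *H2afz* to 0.0095, and with controls 1 and 1_1 averaged *Npat* turned to 0.0513. With single libraries left out, the log2 fold change ran from -0.34 to 0.0166 for *Hist1h1c*, -0.92 to 0.0236 for *Hist2h2bb*, -0.94 to 0.15 for *Hist1h3c*, -0.65 to 0.70 for *Hist2h3c1*, -0.74 to 0.0413 for *Hist1h4d*, -0.69 to 0.12 for *Hist2h4*, -0.15 to 0.10 for *Npat*, -0.14 to 0.0519 for *H2afz* and -0.0471 to 0.0291 for *H1f0*. None of these genes had passed the threshold. Without the filter on low counts 60 members were tested, and *Hist1h2ah*, with 3, 2 and 3 reads in control and 0 in each library labelled Cre, passed beside the 6 called with it.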
